A study of Homo sapiens with 24 samples.

Results

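The aryl hydrocarbon receptor AHR and 6 genes that act with it or answer to it were followed across cell lines, treatments and times. The 7 genes were chosen by symbol and are 7 of the 57820 rows of the table: the receptor AHR, its partner ARNT, the repressors AHRR and TIPARP, and the enzymes CYP1A1, CYP1B1 and ALDH3A1. Messenger RNA was sequenced from RBE and SNU1079, each a single human cell line from cholangiocarcinoma, a cancer of the bile ducts. According to the labels, both lines carry mutant IDH1 and express SULT1A1, so these features are shared by every group. In each line, cells received either YC-1, a small molecule that stimulates soluble guanylate cyclase and is also used to inhibit HIF-1, or DMSO alone as the solvent control, and were collected after 6 h or 16 h. The labels name no dose. This gave 8 groups of 3 libraries, which the design text describes as biological replicates. Times were read from the sample titles; a second time label gives 16 h for all DMSO samples and 6 h for all YC-1 samples and was not used.

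AHR is a transcription factor of the bHLH-PAS family that waits in the cytosol with chaperones until a ligand, such as a polycyclic aromatic hydrocarbon or a tryptophan metabolite, binds it. It then enters the nucleus, pairs with ARNT and binds DNA at a short core, GCGTG, from which it drives CYP1A1, CYP1B1 and other genes of foreign compound metabolism. Among its targets are AHRR, which competes for ARNT and for the DNA, and TIPARP, an ADP-ribosyltransferase that marks AHR and lowers its activity, so that the pathway limits itself.

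The sites at which the core GCGTG, or CACGC when read on the other strand, stands just before a start of these genes were taken from RefSeq promoter windows on GRCh38.p14. Of the 7 genes, 5 had windows in that table, 8 in all, and CYP1B1 and ALDH3A1 had none. In the 250 bases before the start, 4 of the 8 windows held the core, against 32.2% of all 35116 promoter windows of the same length. The longer letters TNGCGTG stood in 4.52% of all windows. The 6 sites are shown 5′ to 3′ on the strand of the gene, with the core in capitals, because the values below concern the genes they precede. A match describes letters and does not show binding.
CYP1A1: agggaaggagGCGTGgccacacgta
AHRR, first start: cgggcggctcGCGTGccggggtggg
AHRR, second start, far site: ggcGCGTGacaggcaggg
AHRR, second start, near site: agaagggtggGCGTGtgcgcgcgtt
TIPARP, far site: cgagaaaggaCACGCcccctcgcgg
TIPARP, near site: aacgaacgcgCACGCgcgcgcaggg

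The CYP1A1 site lies at chr15:74725571-74725595 on the minus strand, and its core begins 57 bases before the start. The AHRR sites lie on the plus strand at chr5:321674-321698, chr5:322360-322377 and chr5:322558-322582, with cores 30, 247 and 42 bases before their starts. Only the first AHRR site holds the longer letters TNGCGTG, and the 30 bases after its start were not found in a GENCODE 29 transcript of AHRR. The TIPARP sites lie on the plus strand at chr3:156674372-156674396 and chr3:156674438-156674462, with cores 208 and 142 bases before the start of the first of 3 windows. The single windows of AHR and ARNT held no such core. The cores of the CYP1A1 site, of both TIPARP sites and of the near AHRR site fall inside exons of these genes in GENCODE 29, which holds transcripts that begin further upstream.

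All values are normalised counts per gene, and tests were run with limma on log2(normalised count + 1) over 17860 genes. A gene is said to have risen or fallen when its Benjamini-Hochberg adjusted p was under 0.05, and differences are log2 values ± SE, with 3 libraries per group. Unless a smaller fit is named, the SE rests on a single estimate of spread per gene over all 24 libraries, not on the compared groups alone. All 7 genes passed the filter on low values, ALDH3A1 only through its RBE libraries. The p-values rest on that pooled spread between libraries, and an exact permutation test of 3 against 3 could not go below p = 0.1.

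Normalised counts summed to between 19005743 and 27008873 per library. In SNU1079, 3 libraries are treated as standing apart from their group, a choice taken from an earlier analysis of these data: YC-1 at 6 h replicate 1, DMSO at 16 h replicate 1, and YC-1 at 16 h replicate 2. By distance alone YC-1 at 16 h replicate 3 was as far from its group (mean r of 0.959 with its group mates for both), and without it the members past the test at 16 h were the same apart from ALDH3A1. The share of signal in mitochondrial genes moved with YC-1. At 16 h it was 7.67% to 8.18% with DMSO and 15.4% to 17.0% with YC-1 in RBE. In SNU1079 at 16 h it was 6.02% to 8.5% with DMSO, and with YC-1 it was 18.1% and 22.1% in replicates 1 and 3 and 3.38% in replicate 2. Its part in the 16 h values of AHR, AHRR and TIPARP was not tested. Of 8 cholangiocyte markers, 7 were found in the table; their summed level was 33000 to 58410 in RBE and 58430 to 111700 in SNU1079, and CFTR stayed below 10. The hepatocyte markers ALB and APOA1 were listed at 0 in every SNU1079 DMSO library, and the stromal marker DCN was at 0 in all libraries of both lines. Other markers of these lists were present. With DMSO the hepatocyte sums were 1318 to 1420 in RBE and 1170 to 1356 in SNU1079. Stromal sums were 60.56 to 115.4 in RBE and 2021 to 3829 in SNU1079. Leukocyte sums were 1159 to 1526 and 1361 to 1567 in these lines, and endothelial sums 3.882 to 9.435 and 17.33 to 52.02. YC-1 changed many genes in both directions, with 4867 higher and 4754 lower in RBE at 16 h and 5130 higher and 4611 lower in SNU1079 at 16 h. Scaling the libraries to equal sums turned the RBE split into 2904 higher and 6474 lower and moved the median of all genes by -0.30, and for SNU1079 it gave 3068 higher and 6598 lower with a shift of -0.31. Scaling to ribosomal protein genes gave 1038 higher and 10030 lower in RBE (shift -0.85) against 2254 higher and 7508 lower in SNU1079 (shift -0.49) at the later time. For SNU1079 at 6 h it gave 1369 higher and 3599 lower (shift -0.20), where the deposited scaling gave 2499 and 2543. A change relative to this shift is smaller or larger accordingly, and calls of the 7 genes that a scaling ended are named beside the gene.

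**Figure D1:**
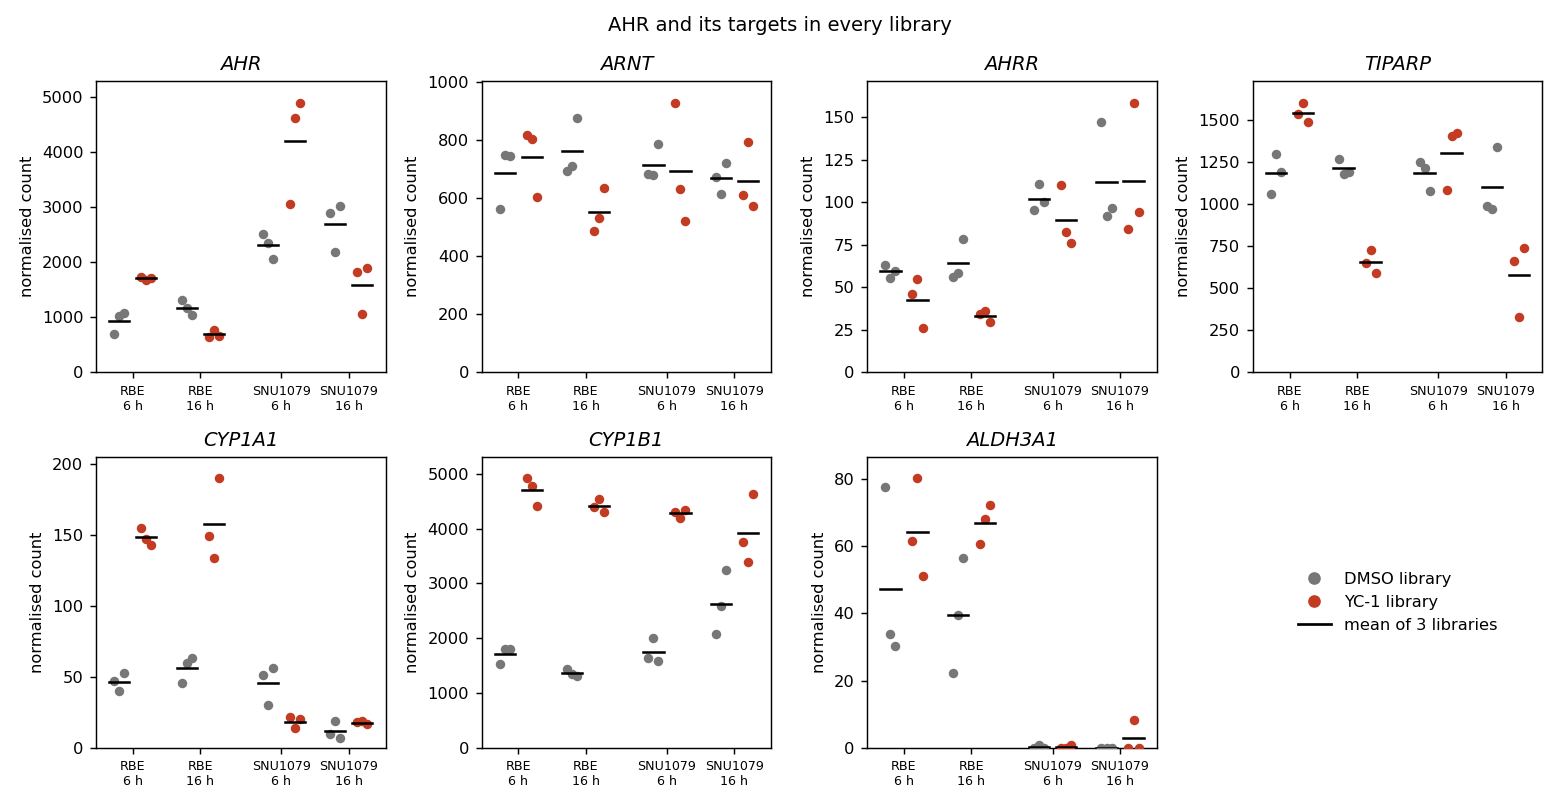
Normalised counts of the 7 genes in each of the 24 libraries (points), by line and time on the horizontal axis, with DMSO in grey, YC-1 in red and a bar at the mean of 3 libraries; each panel has its own vertical scale, which starts at 0. CYP1B1 was higher with YC-1 in all 4 settings, CYP1A1 was higher in RBE alone past the test, and AHR was higher at 6 h and lower at 16 h in both lines.

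At 6 h in RBE, 3 of the 7 genes rose and none fell, where 11.6% of all tested genes rose and 12.4% fell (24.0% in all). At 16 h in RBE, 2 rose and 4 fell, with 27.3% and 26.6% of all genes (53.9% in all). In SNU1079, 2 rose and 1 fell at 6 h, where 14.0% and 14.2% of all genes did so (28.2% in all). At 16 h in SNU1079, 1 rose and 2 fell, where 28.7% and 25.8% of all genes did so (54.5% in all), and 3 of 7 does not stand above that share. The median difference of the 7 genes was 0.54 and -0.47 in RBE at 6 h and 16 h and -0.03 and -0.02 in SNU1079, beside 0.00, 0.02, 0.01 and 0.06 over all genes. YC-1 and DMSO libraries did not overlap for 5 of the 7 genes in RBE at 6 h and for 7 at 16 h, against 48.1% and 69.2% of all genes. In SNU1079 they did not overlap for 3 genes at each time, against 40.3% and 51.3%.

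AHR, the receptor itself (ENSG00000106546, chromosome 7, 16916359 to 17346152 in GENCODE 29 on GRCh38), moved one way at 6 h and the other at 16 h. In RBE at 6 h it stood at 689.7, 1014 and 1074 in the DMSO libraries and at 1733, 1677 and 1712 in the YC-1 libraries. All YC-1 libraries were above all DMSO libraries, and AHR rose by 0.91 ± 0.21, a ratio of means of 1.84 (limma adjusted p = 0.00259). At 16 h in RBE it stood at 1311, 1161 and 1035 with DMSO and at 632.3, 762.7 and 660.3 with YC-1. The order was now turned around without overlap, and AHR fell by 0.77 ± 0.21 on the log2 scale to 0.586 of the DMSO mean (limma adjusted p = 0.00382). RNA from whole cultures was measured, so fewer cells with a transcript and less of it per cell cannot be told apart, here or for the other genes.

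SNU1079 gave the same pattern from a higher level. AHR at 6 h was at 2514, 2352 and 2053 with DMSO and at 3061, 4621 and 4897 with YC-1. It rose by 0.84 ± 0.21, a ratio of 1.82, with the groups apart (limma adjusted p = 0.00429). Of the YC-1 libraries, replicate 1, which stands apart from its group, was the lowest, and without the 3 such libraries the difference was 1.05 (limma adjusted p = 4.91e-05). With scaling to ribosomal protein genes it was 0.61 and did not pass (limma adjusted p = 0.0949). After 16 h the DMSO libraries held 2898, 2182 and 3013 and the YC-1 libraries 1824, 1056 and 1890. No library overlapped, and AHR fell by 0.80 ± 0.21 to 0.590 of the DMSO mean (limma adjusted p = 0.0029). The lowest value was again in a library that stands apart; without the 3 libraries the difference was -0.47 (limma adjusted p = 0.0326), and it did not pass when these 6 libraries were fitted alone (limma adjusted p = 0.0683).

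The turn between the times was tested as the YC-1 effect at 16 h minus that at 6 h. For AHR it was -1.68 ± 0.30 in RBE (limma adjusted p = 0.00054) and -1.63 ± 0.30 in SNU1079 (limma adjusted p = 0.000785). Between the lines the effects differed by -0.07 at 6 h (95% interval -0.70 to 0.55) and -0.03 at 16 h (-0.65 to 0.60), neither past the test. With both times pooled, the YC-1 difference of AHR was 0.07 in RBE and 0.02 in SNU1079, and neither passed. Ordered by mean, AHR ran from 685 ± 68.6 (SD, n = 3) in RBE with YC-1 for 16 h to 4193 ± 990 in SNU1079 with YC-1 for 6 h. Neighbouring groups in this order overlapped except at 2 steps. One lay between RBE with YC-1 for 6 h (up to 1733) and SNU1079 with DMSO for 6 h (from 2053), the other between SNU1079 with DMSO for 16 h (up to 3013) and SNU1079 with YC-1 for 6 h (from 3061).

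ARNT, the partner with which AHR binds DNA (ENSG00000143437, chromosome 1, 150809705 to 150876768), moved little. Its group means ran from 550.2 ± 77.0 in RBE with YC-1 for 16 h to 760 ± 102 in RBE with DMSO for 16 h, and neighbouring groups overlapped throughout. In RBE at 16 h it was at 693, 710.3 and 876.8 with DMSO and at 484.7, 530.9 and 635 with YC-1. These libraries did not overlap, and ARNT fell by 0.47 ± 0.19 on the log2 scale (limma adjusted p = 0.0409). The call was lost when DMSO replicate 2 or 3 or YC-1 replicate 1 or 2 was left out, with limma adjusted p from 0.0542 to 0.166. At 6 h the difference was 0.11 in RBE (95% interval -0.29 to 0.51) and -0.08 in SNU1079 (-0.48 to 0.31), and at 16 h it was -0.03 in SNU1079 (-0.43 to 0.36), none past the test. With scaling to ribosomal protein genes the last was -0.59 and passed (limma adjusted p = 0.0214).

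AHRR, the repressor that takes AHR's place beside ARNT (ENSG00000063438, chromosome 5, 304176 to 438291), was not higher with YC-1 in any of the 4 settings past the test. In RBE at 6 h it stood at 63.3, 55.2 and 59.3 with DMSO and at 46.1, 54.6 and 26.2 with YC-1. The libraries did not overlap, and the YC-1 libraries lay wide apart from each other. The difference of -0.54 ± 0.27 did not pass (limma adjusted p = 0.172). At 16 h in RBE the DMSO libraries were at 55.8, 58.1 and 78.3 and the YC-1 libraries at 34.2, 35.7 and 29.8. AHRR fell there by 0.91 ± 0.27 to 0.519 of the DMSO mean (limma adjusted p = 0.00767), with no overlap.

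In SNU1079, AHRR was at 95.2, 110.7 and 100.1 with DMSO and at 110.2, 82.4 and 75.9 with YC-1 at 6 h. The groups overlapped, and the difference was -0.20 (95% interval -0.78 to 0.38, limma adjusted p = 0.649). At 16 h it was at 147.5, 91.9 and 96.7 with DMSO and at 84.0, 158.7 and 94.2 with YC-1, with means of 112.0 and 112.3. The highest library of each group was one that stands apart, and the difference was -0.02 (-0.60 to 0.56) with all libraries and -0.08 without the 3. The effect at 16 h was 0.89 higher in SNU1079 than in RBE, which did not pass the test of that difference (limma adjusted p = 0.129), and passed at 1.23 with scaling to ribosomal protein genes (limma adjusted p = 0.0308). AHRR shares its locus with PDCD6 on the same strand, which held 1474 to 2411 in every library, so reads in shared exons may have been counted for either gene.

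TIPARP, the ADP-ribosyltransferase that restrains AHR (ENSG00000163659, chromosome 3, 156673235 to 156706770), was lower at 16 h in both lines. In RBE the DMSO libraries were at 1268, 1178 and 1189 and the YC-1 libraries at 649.3, 723.8 and 589. It fell by 0.89 ± 0.21 to 0.540 of the DMSO mean, without overlap (limma adjusted p = 0.000958). In SNU1079 at 16 h TIPARP was at 987.8, 967.5 and 1340 with DMSO and at 659.9, 326.5 and 737.9 with YC-1. The lowest value was in YC-1 replicate 2, which stands apart, and all YC-1 libraries were below all DMSO libraries. The difference of -1.0 ± 0.21 passed the test (limma adjusted p = 0.00032), as did that of -0.71 without the 3 libraries (limma adjusted p = 0.000205); with these 6 libraries fitted alone it did not (limma adjusted p = 0.0714).

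The 6 h values of TIPARP lay the other way or close together. In RBE they were 1060, 1299 and 1190 with DMSO and 1533, 1602 and 1485 with YC-1. All YC-1 libraries were higher, but the difference of 0.38 ± 0.21 did not pass over 24 libraries (limma adjusted p = 0.198) and passed with the 12 RBE libraries alone (limma adjusted p = 0.00559). In SNU1079 TIPARP was at 1248, 1216 and 1078 with DMSO and at 1085, 1404 and 1419 with YC-1, which overlapped (0.13, 95% interval -0.30 to 0.57). The YC-1 effect at 16 h was below that at 6 h by -1.28 ± 0.29 in RBE (limma adjusted p = 0.00425) and by -1.14 ± 0.29 in SNU1079 (limma adjusted p = 0.0107). The SNU1079 difference did not pass with the 12 libraries of that line alone (limma adjusted p = 0.117). The antisense gene TIPARP-AS1 was at 5.65 to 26.7.

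CYP1A1, a monooxygenase that oxidises aromatic hydrocarbons and is the classical readout of AHR (ENSG00000140465, chromosome 15, 74719542 to 74725610), rose in RBE at both times. At 6 h the DMSO libraries were at 47.1, 39.7 and 52.9 and the YC-1 libraries at 154.9, 147.4 and 142.9. CYP1A1 rose by 1.66 ± 0.30, a ratio of means of 3.19, with a wide gap between the groups (limma adjusted p = 0.000246). At 16 h it was at 45.4, 59.9 and 63.6 with DMSO and at 149.1, 134.0 and 190.0 with YC-1. The rise of 1.47 ± 0.30, a ratio of 2.8, was again without overlap (limma adjusted p = 0.000275). With scaling to ribosomal protein genes it was 0.57 and did not pass (limma adjusted p = 0.0947). The effects at the 2 times differed by -0.19 ± 0.42 (95% interval -1.08 to 0.70), which did not pass, and by -1.03 with scaling to ribosomal protein genes, which did (limma adjusted p = 0.0466).

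In SNU1079 CYP1A1 did not follow RBE. At 6 h it was at 50.9, 30.4 and 56.3 with DMSO and at 21.5, 13.8 and 20.0 with YC-1. Every YC-1 library was below every DMSO library, and CYP1A1 fell by 1.25 ± 0.30 to 0.401 of the DMSO mean (limma adjusted p = 0.00295). The difference was -1.37 without the libraries that stand apart (limma adjusted p = 0.00333), and with these 6 libraries fitted alone the call was lost (limma adjusted p = 0.0528). At 16 h CYP1A1 was at 9.96, 18.8 and 6.92 with DMSO and at 17.8, 18.6 and 16.7 with YC-1. The groups overlapped through DMSO replicate 2, and the difference of 0.64 ± 0.30 (95% interval 0.01 to 1.27) did not pass (limma adjusted p = 0.0728). Without that library it was 1.0 and passed (limma adjusted p = 0.0061).

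The 2 DMSO groups of SNU1079 differed in CYP1A1, while its YC-1 groups had like means. DMSO libraries had a mean of 45.9 ± 13.7 (SD, n = 3) at 6 h and 11.9 ± 6.17 at 16 h, a difference of -1.92 ± 0.30 on the log2 scale (limma adjusted p = 0.000236) that did not pass with these 6 libraries fitted alone (limma adjusted p = 0.0797). The YC-1 means were 18.4 ± 4.10 and 17.7 ± 0.912. The YC-1 effect at 16 h minus that at 6 h was 1.89 ± 0.42 (limma adjusted p = 0.00405), 1.91 without the 3 libraries that stand apart, and did not pass with the 12 SNU1079 libraries alone (limma adjusted p = 0.0631). Each effect is measured against the solvent of its own time, so this difference of effects holds the difference between the DMSO groups.

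Between the lines, the CYP1A1 effect at 6 h was -2.91 ± 0.42 in SNU1079 relative to RBE (95% interval -3.80 to -2.02, limma adjusted p = 0.000488). This placed CYP1A1 at percentile 0.101 of that difference among all tested genes, and it was the only one of the 7 to pass there, where 1.54% of all genes did. At 6 h the solvent levels of the lines did not differ past the test, at 46.6 ± 6.63 in RBE and 45.9 ± 13.7 in SNU1079 (-0.06, 95% interval -0.69 to 0.57). At 16 h the effect in SNU1079 minus that in RBE was -0.83 ± 0.42 (-1.72 to 0.06), which did not pass (limma adjusted p = 0.203), and was -0.96 and passed with a pseudocount of 10 (limma adjusted p = 0.0313). Ordered by mean, the 3 lowest CYP1A1 groups were those of SNU1079 other than DMSO at 6 h, all at or below 21.5. The 3 DMSO groups from 30.4 to 63.6 came next with overlap, and the RBE YC-1 groups, from 134.0 to 190.0, stood apart above them.

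**Figure D2:**
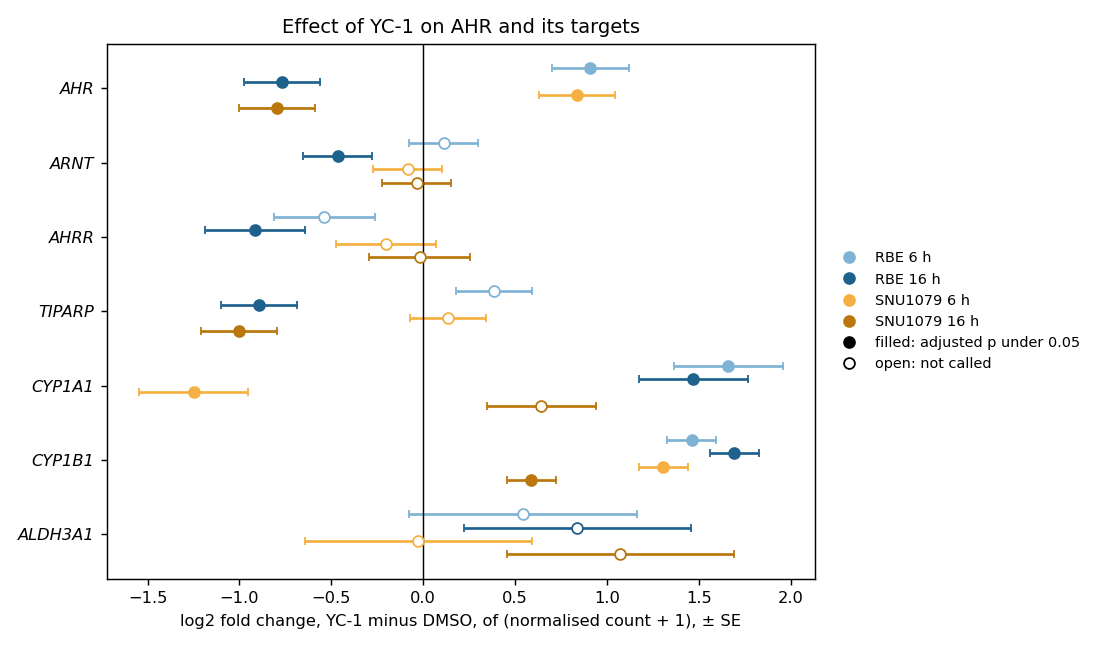
Log2 difference of YC-1 minus DMSO ± SE (horizontal axis) for each gene (vertical axis) in RBE and SNU1079 at 6 h and 16 h, with filled points where the adjusted p was under 0.05. CYP1A1 lay at 1.66 in RBE and -1.25 in SNU1079 at 6 h, while CYP1B1 lay between 1.31 and 1.69 in 3 settings and at 0.59 in SNU1079 at 16 h.

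CYP1B1, a related monooxygenase that also acts on oestrogens (ENSG00000138061, chromosome 2, 38066973 to 38109902), was the only one of the 7 genes that rose in all 4 settings. In RBE at 6 h it went from 1528, 1809 and 1801 with DMSO to 4917, 4784 and 4419 with YC-1. At 16 h it went from 1443, 1344 and 1305 to 4384, 4538 and 4303. The rises of 1.46 ± 0.13 (limma adjusted p = 6.87e-08) and 1.69 ± 0.13 (limma adjusted p = 1.25e-09) were ratios of 2.75 and 3.23, with the groups far apart.

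In SNU1079 at 6 h CYP1B1 was at 1644, 1997 and 1574 with DMSO and at 4307, 4192 and 4333 with YC-1. It rose by 1.31 ± 0.13, a ratio of 2.46 (limma adjusted p = 2.49e-07), so in this line CYP1B1 rose at the time when CYP1A1 fell. At 16 h it was at 2069, 2579 and 3235 with DMSO and at 3752, 3382 and 4630 with YC-1, closer together but without overlap. The rise of 0.59 ± 0.13, a ratio of 1.49, passed (limma adjusted p = 0.000836) and was 0.53 without the libraries that stand apart. It did not pass with equal sums (0.23, limma adjusted p = 0.119), with scaling to ribosomal protein genes (0.04, limma adjusted p = 0.90) or with these 6 libraries fitted alone (limma adjusted p = 0.0731).

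The smaller CYP1B1 effect at that time went with a higher solvent level. In SNU1079 with DMSO, CYP1B1 rose from 1738 ± 227 (SD, n = 3) at 6 h to 2627 ± 585 at 16 h (0.58 ± 0.13, limma adjusted p = 0.00866), a call lost without replicate 3 of either DMSO group (limma adjusted p = 0.0578 and 0.052). It was also lost with scaling to ribosomal protein genes (0.54, limma adjusted p = 0.126), with the 12 libraries of the line (limma adjusted p = 0.113) and with these 6 libraries fitted alone (limma adjusted p = 0.16). The YC-1 means were 4277 ± 75.4 and 3921 ± 641. The effect at 16 h minus that at 6 h was -0.72 ± 0.19 in SNU1079 (limma adjusted p = 0.0126), which did not pass with the 12 libraries of that line alone (limma adjusted p = 0.109). In RBE that difference was 0.23 (95% interval -0.17 to 0.63) and did not pass. At 16 h the effect was lower in SNU1079 than in RBE by -1.10 ± 0.19 (limma adjusted p = 0.000529), or -0.74 without passing under scaling to ribosomal protein genes (limma adjusted p = 0.0683). At 6 h the lines differed by -0.15 (-0.56 to 0.25), which did not pass. CYP1B1-AS1 and RMDN2 overlap CYP1B1 on the opposite strand and were at 7.18 to 87.5 and 11.98 to 97.1. The strand setting of the counting is not given in the sources used here.

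**Figure D3:**
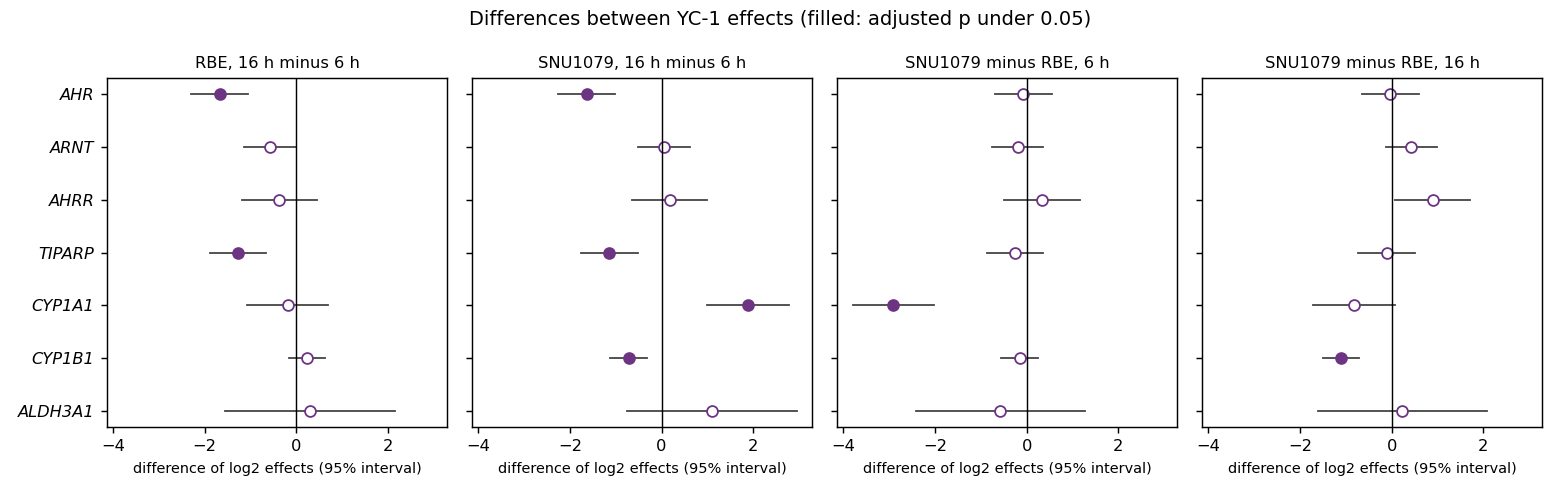
Differences between YC-1 effects on the log2 scale with 95% intervals (horizontal axes) for the 7 genes (vertical axis), as 16 h minus 6 h within each line and as SNU1079 minus RBE at each time; filled points had an adjusted p under 0.05. AHR and TIPARP lay below 0 over time in both lines, and CYP1A1 at 6 h (-2.91) and CYP1B1 at 16 h (-1.10) were the members that passed between the lines.

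Of the 7 genes, the YC-1 effect changed over time past the test for 2 in RBE (18.2% of all genes) and for 4 in SNU1079 (17.0%). The lines differed past the test for 1 gene at 6 h and 1 at 16 h (14.6% of all genes at that time). A time difference and a line difference that use the same line and time share those libraries, and their values are therefore given side by side only.

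The 2 CYP1 genes were also set against each other within each library, as a ratio of the deposited values with nothing added, which no scaling of libraries can move. The log2 ratio of CYP1A1 to CYP1B1 changed with YC-1 by 0.22 and -0.21 in RBE at 6 h and 16 h, with overlapping libraries. In SNU1079 it changed by -2.60 at 6 h, where the libraries of the 2 groups were apart, and by 0.11 at 16 h, where they overlapped. The ratios of the repressors to the receptor were lower with YC-1 at 6 h in both lines without overlap: AHRR to AHR by -1.46 in RBE and -1.04 in SNU1079, and TIPARP to AHR by -0.52 and -0.70. AHR itself rose at 6 h, by 0.91 in RBE and 0.84 in SNU1079. Neither AHRR nor TIPARP passed the test over 24 libraries at that time. At 16 h both ratios overlapped between the groups in both lines, at -0.17 and 0.78 for AHRR and -0.13 and -0.21 for TIPARP. These ratios are descriptions without a test.

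ALDH3A1, an aldehyde dehydrogenase of the AHR target group (ENSG00000108602, chromosome 17, 19737984 to 19748943), was found in RBE. At 6 h it was at 77.6, 33.9 and 30.3 with DMSO and at 61.6, 80.2 and 51.2 with YC-1, which overlapped (0.54 ± 0.62, limma adjusted p = 0.60). At 16 h it was at 22.4, 39.6 and 56.4 with DMSO and at 60.6, 68.1 and 72.2 with YC-1. All YC-1 libraries were higher there, but the difference of 0.84 ± 0.62 did not pass (limma adjusted p = 0.265), and it passed at 0.70 with a pseudocount of 10 (limma adjusted p = 0.0385). In SNU1079 ALDH3A1 was listed at 0 in 9 of 12 libraries and below 0.88 in 2 more. The remaining library, YC-1 at 16 h replicate 2, which stands apart from its group, held 8.31. Neither SNU1079 difference passed with all libraries. When replicate 1 or 3 of that group was left out, the 16 h difference, which rests on the library at 8.31, passed (limma adjusted p = 0.0447 and 0.0423).

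In the DMSO libraries alone, the lines differed for 2 of the 6 genes other than ALDH3A1 at 6 h and for 4 of them at 16 h, beside 56.4% and 55.1% of all genes. ALDH3A1 entered the test through RBE alone, so its difference between the lines is given only as the levels above. AHR in SNU1079 exceeded that in RBE by 1.34 ± 0.21 at 6 h and by 1.20 ± 0.21 at 16 h (limma adjusted p = 1.33e-05 and 5.15e-05). AHRR was higher by 0.77 ± 0.27 and 0.78 ± 0.27 (limma adjusted p = 0.0207 and 0.02), though the 16 h call was lost without the libraries that stand apart (0.57, limma adjusted p = 0.0588). Those calls were also lost when single DMSO libraries were left out, at 6 h RBE replicate 2 or SNU1079 replicate 2 and at 16 h RBE replicate 1 or 2 or SNU1079 replicate 1, with limma adjusted p from 0.0623 to 0.116. CYP1A1 (-2.24 ± 0.30) was lower and CYP1B1 (0.92 ± 0.13) higher in SNU1079 at 16 h, while neither passed at 6 h. Over time with DMSO, none of the 7 genes passed in RBE, where 0.0448% of all genes did, and CYP1A1 and CYP1B1 passed in SNU1079, where 8.57% did. In RBE, CYP1B1 was lower at 16 h than at 6 h with DMSO, by -0.33 without overlap, and did not pass (limma adjusted p = 1).

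**Figure D4:**
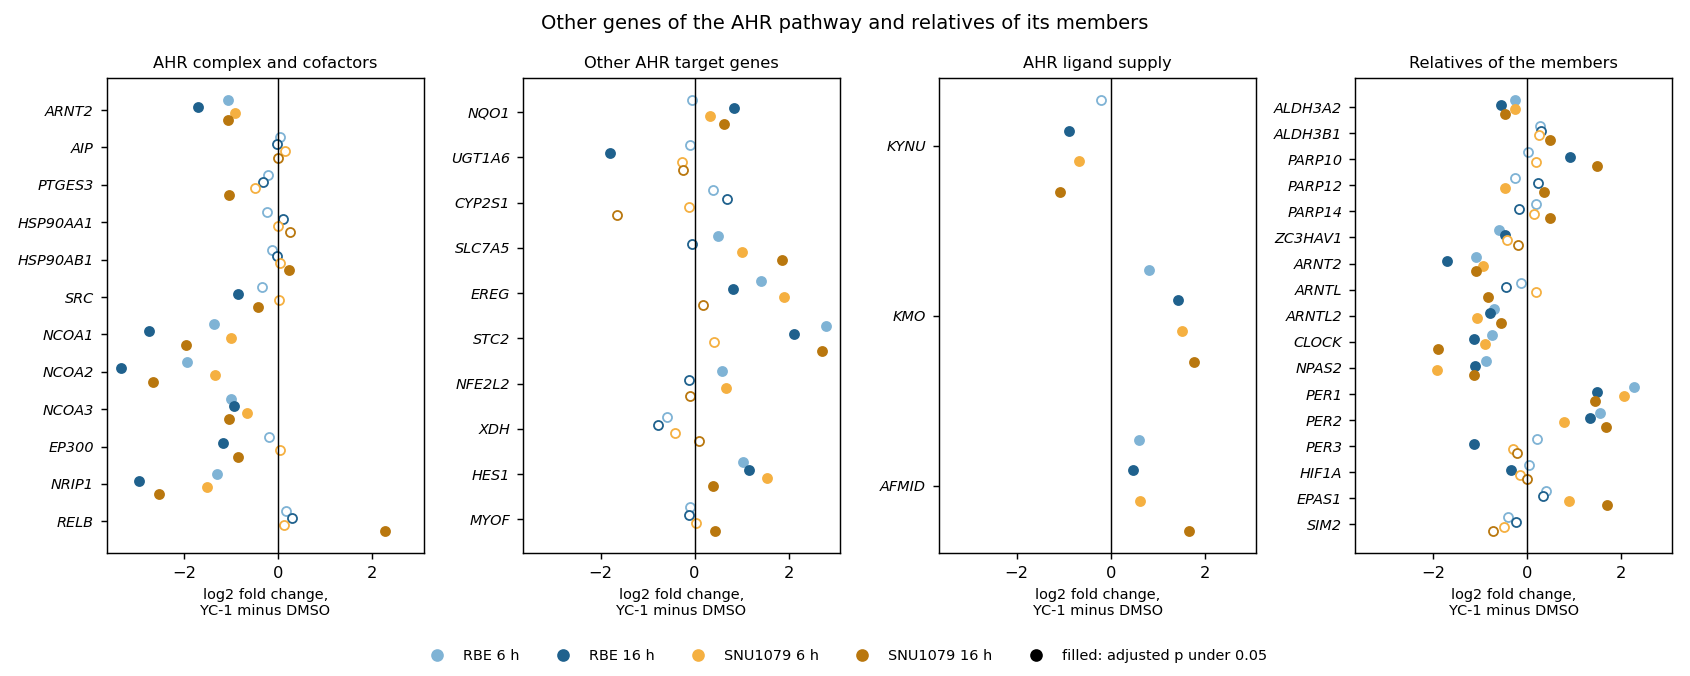
Log2 difference of YC-1 minus DMSO (horizontal axes) for genes around the pathway, by list, in RBE and SNU1079 at 6 h and 16 h, with filled points where the adjusted p was under 0.05. In the list of complex and cofactors NCOA1, NCOA2 and NRIP1 lay below 0 in all 4 settings, from -1.0 to -3.35.

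Among genes that serve the AHR complex, more fell than rose with YC-1. Of 12 genes of the complex and its cofactors, all tested, 5 fell and 0 rose in RBE at 6 h, 7 and 0 at 16 h, 5 and 0 in SNU1079 at 6 h, and 8 fell and 2 rose at 16 h. Of all genes, 12.4%, 26.6%, 14.2% and 25.8% fell in these 4 settings. The median differences of the list were -0.29, -0.90, -0.25 and -0.96, beside 0.00, 0.02, 0.01 and 0.06 over all genes. NCOA2, a coactivator of nuclear receptors and of AHR, fell in RBE from 753.9 ± 196 to 190.4 ± 22.5 (SD, n = 3) at 6 h and from 875.3 ± 55.2 to 86.2 ± 18.4 at 16 h, and in SNU1079 its log2 differences were -1.35 and -2.67. The corepressor NRIP1 also fell throughout, in RBE by log2 differences of -1.3 (6 h) and -2.97 (16 h), and in SNU1079 by -1.51 and then -2.55. The coactivator NCOA1 had -1.37 followed by -2.75 in RBE, beside -1.0 followed by -1.96 in SNU1079. ARNT2, a close relative of ARNT that was singled out after its values were seen and counts in both this list and that of the relatives, fell in all 4 settings, with differences of -1.07, -1.70, -0.93 and -1.08. RELB, an NF-kB subunit that can pair with AHR, rose in SNU1079 at 16 h alone past the test, by 2.28. Its DMSO mean there was 186.5 ± 74.0 against 899.6 ± 90.1 at 6 h, and its YC-1 means were 1013 ± 395 and 900.2 ± 314.

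Of 17 further genes known as AHR targets, 10 were tested, of which 5 rose and 0 fell in RBE at 6 h, 4 rose and 1 fell at 16 h, and 5 rose and 0 fell in SNU1079 at each time. The 5 in SNU1079 at 16 h include STC2, which passed the filter on low values only through RBE. The 1 fall in RBE at 16 h is UGT1A6, which passed that filter only through SNU1079. Both counts therefore hold a gene near the floor in the line counted. Among all genes 11.6%, 27.3%, 14.0% and 28.7% rose. The medians of these targets were 0.45, 0.32, 0.37 and 0.28, against the all-gene medians of 0.00, 0.02, 0.01 and 0.06. EREG, a ligand of the EGF receptor, rose in RBE from 3194 ± 639 to 8447 ± 621 at 6 h and from 3698 ± 169 to 6501 ± 375 at 16 h (SD, n = 3), and in SNU1079 from 16.8 ± 4.05 to 64.5 ± 9.17 at 6 h. In SNU1079 at 16 h EREG was at 40.8 ± 13.6 with DMSO and 50.2 ± 28.0 with YC-1. These libraries overlapped, and the difference of 0.18 did not pass (limma adjusted p = 0.622). With scaling to ribosomal protein genes the EREG value in RBE at 16 h turned to -0.10. STC2, a secreted glycoprotein, rose in RBE from 326.2 ± 38.6 to 2262 ± 244 at 6 h and from 374.0 ± 42.4 to 1624 ± 140 at 16 h. In SNU1079 STC2 was below 0.69 in all DMSO libraries and reached at most 23.7 with YC-1 at 16 h, with 1 YC-1 library at 0. SLC7A5, a transporter of large neutral amino acids that also carries AHR ligands of the tryptophan pathway, rose by 0.50 in RBE at 6 h and by 1.01 and 1.86 in SNU1079, and was at -0.05 in RBE at 16 h, which did not pass. Its DMSO means in SNU1079 were 3422 ± 122 at 6 h and 1862 ± 302 at 16 h, and its YC-1 means were 7023 ± 1694 and 6718 ± 422. UGT1A6, a glucuronosyltransferase, fell past the test in RBE at 16 h only at levels below 10, and shares exons with the other UGT1A genes, so its value is uncertain.

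Of 8 enzymes of tryptophan breakdown, which include some that form kynurenine and some that use it up, 3 passed the filter on low values. These 3 were tested, and the shares of all genes that rose or fell are those given for the targets and the complex. Those not tested were low or absent. IDO1 was at 0 in every group, and the highest group means were 0.409 for IDO2, 4.79 for TDO2, 15.2 for IL4I1 and 0.301 for HAAO. KMO, which hydroxylates kynurenine, rose by 0.81 and 1.43 in RBE and by 1.52 and 1.77 in SNU1079 at 6 h and 16 h. AFMID, which forms kynurenine, rose by 0.59, 0.47, 0.62 and 1.67 in the same order. KYNU, which cleaves kynurenine, was at -0.21 in RBE at 6 h, which did not pass, and fell in the other 3 settings, with -0.90 in RBE at 16 h and -0.68 and -1.08 in SNU1079. With scaling to ribosomal protein genes the RBE 16 h value of AFMID turned to -0.44.

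Among 19 relatives of the 7 genes, 17 were tested, and 2 rose and 6 fell in RBE at 6 h, 3 and 8 at 16 h, 3 and 6 in SNU1079 at 6 h, and 7 and 6 at 16 h. The shares of all genes that rose were 11.6%, 27.3%, 14.0% and 28.7%, and those that fell 12.4%, 26.6%, 14.2% and 25.8%. The medians were -0.12, -0.33, -0.26 and -0.18 for the relatives and 0.00, 0.02, 0.01 and 0.06 for all genes. PER1, a PAS protein of the clock that does not bind DNA itself, rose by 2.28 and 1.5 in RBE and by 2.06 and 1.46 in SNU1079. CLOCK, a bHLH-PAS factor that PER proteins restrain, fell in all 4 settings, at -0.73 (6 h) and -1.12 (16 h) in RBE, beside -0.88 and -1.89 in SNU1079. NPAS2, which can stand in for CLOCK, fell as well, at -0.88, -1.10, -1.91 and -1.12. EPAS1, the HIF-2 alpha subunit that pairs with ARNT, rose in SNU1079 from 3688 ± 105 to 7067 ± 2271 at 6 h and from 2728 ± 176 to 9069 ± 2225 at 16 h, and did not pass in RBE (0.40 and 0.33).

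Genes with the pattern most like that of each member were found by Pearson's r of the log2 values over the 24 libraries, which share lines, treatments and times, among 12320 candidates (12321 for ALDH3A1). AHR was most like ARID5B (r = 0.931), LIPH and GEMIN2. TIPARP was most like PANK3 (0.924), EPC2 and GOLPH3, and AHRR most like NUDCD3 (0.943), RRBP1 and IFT140. For CYP1A1 they were ZMYND19 (0.908), RTCB and ORC6, and for CYP1B1 the early growth response factor EGR1 (0.957), SLFN5 and ZNF425. ALDH3A1, near 0 in one line, was most like MRC2 (0.984), STC1 and CMBL, and ARNT had no gene above ZNF584 (0.692). These values are descriptions of 8 groups and carry no test.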

How the data were processed

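The signal deposited by the authors for 24 libraries is a count per gene that was normalised before deposit, and the submitters' processing notes name STAR, DESeq2 and hg38 without giving their roles. Its totals differ between libraries and its low values do not lie on one step per library, so whole reads were not recovered and tests that need counts were not run. RNA came from the RNeasy Plus kit and libraries from the TruSeq Stranded mRNA kit, per the labels' protocols. The counting tool, its strand setting and its annotation are not given in these sources. Of 57820 rows, 24157 were at 0 in all libraries.

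Genes with at least 10 in at least 3 libraries were tested (17860) as log2(normalised count + 1) in limma 3.58.1 (R 4.3.3). The model held a mean for each of the 8 groups, used 24 libraries, left 16 residual degrees of freedom and had an intensity trend. Tests are two-sided, with Benjamini-Hochberg adjustment over all genes and a threshold of 0.05. Fold changes on this scale understate changes of low genes. The script was tested on simulated data.

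The members and lists were chosen with earlier results of these data known. Named genes are the 7 members, up to 4 called genes per list with the largest change, and per member the 3 genes of highest r with a group mean of at least 100. Coordinates came from GENCODE 29. Alternatives covered pseudocounts, filters, scalings, variance models, the libraries fitted, a replicate block, pooled times, a minimum change and left-out libraries. Same-numbered libraries of YC-1 and DMSO deviated together with r from -0.147 to 0.188, so the numbers were not taken to pair them. Figures were drawn with matplotlib 3.10.9.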

Additional observations from a re-analysis of the deposited data

Results flagged for a closer look

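Effects of YC-1 that differed between times or lines past the limma test of the difference itself are listed here as values. The AHR effect at 16 h minus that at 6 h was -1.68 in RBE and -1.63 in SNU1079. For TIPARP that difference was -1.28 in RBE and -1.14 in SNU1079. In SNU1079 it was 1.89 for CYP1A1 and -0.72 for CYP1B1. Between the lines, SNU1079 minus RBE, the CYP1A1 effect at 6 h differed by -2.91 and the CYP1B1 effect at 16 h by -1.10.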

How the results depend on the processing

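With both times pooled, the AHR difference of each line joins its rise at 6 h with its fall at 16 h. This pooled difference was 0.0703 in RBE and 0.0211 in SNU1079, and neither passed. Set against the called falls at 16 h, these were the only changes of sign for a called member. Scaling to ribosomal protein genes turned 4 list genes in RBE at 16 h: RELB to -0.62, EREG to -0.10, AFMID to -0.44 and EPAS1 to -0.58. CYP1A1 between the lines at 6 h passed in all alternatives run. The replicate numbers were not taken to pair the libraries, and the labels do not say whether they do. With the replicate block, ARNT in RBE at 16 h lost its call (limma adjusted p = 0.0552) and no other member call changed. Causes were not tested.

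Scaling to ribosomal protein genes and the block each left 5 members past the test in RBE at 16 h, and that scaling left 2 in SNU1079 at 6 h. Moves of over 1.5 times in the number of members past the test were as follows. Pooled times gave 3 in RBE and 1 in SNU1079 at 16 h, and 1 in SNU1079 at 6 h. A required change above 0.5 gave 2 in RBE at 16 h, 1 for SNU1079 at each time, 1 for the time difference of each line, 0 between the lines at 16 h and 1 for DMSO over time in SNU1079. Fits of the compared groups alone gave 0 in SNU1079 at 16 h, 1 for its time difference and 0 for its DMSO over time, and the 12 libraries of that line gave 1 for each of the last pair. Ribosomal scaling gave 5 for the time difference in RBE and 1 for DMSO over time in SNU1079. A pseudocount of 10 gave 2 between the lines at 16 h. Leaving out 1 library gave 1 to 2 for DMSO over time in SNU1079.

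Over all genes called, RBE at 6 h (4290) became 6760 with the 12 libraries of the line, 8282 with pooled times and 1100 above 0.5, and SNU1079 at 6 h (5042) became 3332, 8465 and 1423. Above 0.5, 16 h gave 4870 in RBE (9621) and 5046 in SNU1079 (9741, or 6363 with only the groups compared). The time difference in RBE (3256) became 7869 with ribosomal scaling, 6229 with the libraries of the line or the groups compared and 316 above 0.5. In SNU1079 (3036) it became 1078, 339 above 0.5, 5343 without the 3 libraries that stand apart and 2240 to 4691 with 1 library left out, the highest without YC-1 6 h replicate 1. Between the lines at 6 h (275), a pseudocount of 10 gave 456, a change above 0.5 gave 29 and leaving out the 3 libraries 1153. At 16 h (2608) the groups compared gave 1612, a change above 0.5 gave 381 and leaving out the 3 libraries 4027. DMSO over time in RBE (8) gave 13 with a pseudocount of 10 or no filter, 15 with a filter of 50, 4 with ribosomal scaling or the groups compared, 68 with 12 libraries, 0 above 0.5 and 4 to 16 with 1 left out. In SNU1079 (1530) it gave 1013 with ribosomal scaling, 469 with 12 libraries, 886 with the groups compared, 76 above 0.5, 3272 without the 3 libraries and 908 to 1337 with 1 left out. DMSO between the lines gave 5439 and 5189 above 0.5 (10074 and 9843). Depth is not given, and low genes such as ALDH3A1 in SNU1079 are the least certain.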
